A study of Mus musculus with 24 samples.

Results

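The 37 mouse genes described here encode antioxidant and glutathione enzymes and their regulators, taken as a fixed list of symbols; all 37 were found among the 30153 genes of the deposited table. They comprise 4 superoxide dismutase and catalase genes, 3 glutathione peroxidases, 7 peroxiredoxin and sulfiredoxin genes, 5 genes of the thioredoxin system, 6 genes of glutathione synthesis and recycling, 7 glutathione transferases, and 5 genes of the NRF2 pathway and of haem and quinone metabolism. RNA abundance was measured by poly(A)-selected RNA sequencing in 24 libraries labelled kidney, 4 in each of 6 groups, all on the strain background given as C57/BL6. Hap-I and Hap-II name mice carrying either haplotype I or haplotype II of the receptor (human angiotensin receptor type 1); the series title calls them hypertensive and says that they overexpress it. Western diet was given to 3 groups, adult Hap-I mice, aged Hap-I mice and adult Hap-II mice. No diet was stated for adult Hap-I mice, aged Hap-I mice and C57 adults, and the C57 label names no haplotype. Ages in months, sex, the transgene's promoter and the number of founder lines were not in the labels used here.

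Superoxide dismutases turn superoxide into hydrogen peroxide, which catalase, glutathione peroxidases and peroxiredoxins then reduce. Glutathione peroxidases draw on glutathione, a tripeptide made by glutamate-cysteine ligase and glutathione synthetase and returned to its reduced form by glutathione reductase at the cost of NADPH. Peroxiredoxins draw mainly on thioredoxin, which thioredoxin reductases recharge with NADPH. Glutathione transferases couple glutathione to lipid aldehydes and foreign compounds, and many of these genes are targets of NRF2, a transcription factor held in check by KEAP1. The proximal tubule of the kidney is rich in these enzymes, makes the plasma glutathione peroxidase encoded by Gpx3, and breaks down filtered glutathione through the brush-border enzyme encoded by Ggt1.

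Levels are given as TPM, a share of all transcripts that is scaled for transcript length, so levels of different genes can be set side by side; read depth cannot be recovered from it. The 8 Hap-I libraries with no diet stated went against their kidney label: summed TPM of 9 neuron markers was 5875 to 7342 there against 0.942 to 8.75 in the other 16, and 12 proximal tubule markers summed to 12.7 to 137 against 10777 to 83919. They are called the brain-like libraries below, and every contrast with them compares transcripts of different tissue content. Among the other 16, the mitochondrial share of TPM was 21.2% to 35.7% on western diet and 12.4% to 16.9% in C57. The 4 Y-linked genes summed to less than 1 TPM in all 4 C57 libraries, to no more than 2.16 TPM in 5 of the 12 western-diet libraries and to at least 13.2 TPM in the other 7. In bulk tissue, fewer cells of a type and less RNA per cell cannot be told apart.

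To show promoter sequence next to the values, 250 bases upstream of a RefSeq start site (GRCm38.p6, written 5′ to 3′ in the direction of the gene) are given for 4 members whose levels are described below. Gclm, the modifier subunit of glutamate-cysteine ligase, and Gsta3, an alpha-class transferase, each hold 1 match to TGACNNNGC, the core of the antioxidant response element that NRF2 binds with small MAF proteins; capitals mark it, on the reverse strand (GCNNNGTCA) for Gclm. The windows of Gpx4 and Gstm1, shown because those genes were called against C57, hold no match. Both genes have further RefSeq start sites, and the windows of those hold no match either. The Gpx4 window shown lies upstream of its other windows, which fall within chr10:80053315-80054010.
Gclm upstream, chr3:122245307-122245556, plus strand: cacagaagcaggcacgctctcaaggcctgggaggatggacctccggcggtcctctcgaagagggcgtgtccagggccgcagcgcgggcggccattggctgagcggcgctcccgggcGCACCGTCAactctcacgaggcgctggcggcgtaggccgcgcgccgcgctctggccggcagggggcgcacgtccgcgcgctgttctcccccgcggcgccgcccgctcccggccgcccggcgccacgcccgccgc
Gsta3 upstream, chr1:21240335-21240584, plus strand: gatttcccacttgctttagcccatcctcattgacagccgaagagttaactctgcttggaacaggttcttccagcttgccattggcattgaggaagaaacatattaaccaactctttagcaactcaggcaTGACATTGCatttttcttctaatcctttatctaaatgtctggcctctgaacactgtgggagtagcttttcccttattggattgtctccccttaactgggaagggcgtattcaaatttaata
Gpx4 upstream, chr10:80046916-80047165, plus strand: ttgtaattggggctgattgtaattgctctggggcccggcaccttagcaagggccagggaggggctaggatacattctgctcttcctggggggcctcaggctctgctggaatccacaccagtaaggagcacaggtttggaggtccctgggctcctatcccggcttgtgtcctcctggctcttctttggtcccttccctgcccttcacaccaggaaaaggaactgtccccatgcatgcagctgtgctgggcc
Gstm1 upstream, chr3:108017974-108018223, minus strand: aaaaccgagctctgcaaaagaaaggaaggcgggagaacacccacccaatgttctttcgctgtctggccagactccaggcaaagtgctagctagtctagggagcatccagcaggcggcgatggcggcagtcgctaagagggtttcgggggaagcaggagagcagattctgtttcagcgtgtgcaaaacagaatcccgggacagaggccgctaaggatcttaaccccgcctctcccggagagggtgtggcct

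The RefSeq promoter table matched 31 of the 37 members, and Gclc, Gsr, Gsta4, Hmox1, Prdx6 and Sod3 were the members with no entry. Searching both strands of the upstream windows, 10 of the 31 members (32.3%) held the motif in at least 1 window: G6pdx, Gclm, Ggt1, Gsta3, Gstm5, Mgst1, Nfe2l2, Prdx1, Sod1 and Txnrd1. The same search over all genes of the table found it in 3112 of 27025 (11.5%). A match is a description of the letters in the window, not evidence of binding. Members with several start sites had several windows, so these shares are not per window.

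In C57 kidneys the most abundant member was Gpx3, the secreted glutathione peroxidase, at 11663, 13583, 14438 and 14746 TPM, rank 7 among all genes by mean level. Gpx1, the cytosolic and mitochondrial peroxidase, stood at 2852, 1636, 1565 and 1957 TPM, and Gpx4, which reduces lipid hydroperoxides in membranes, at 1720.0, 998, 1011 and 1083 TPM. The C57 ranges of Gpx1 and Gpx4 overlapped, while Gpx3 lay above both in every library. Sod1, the cytosolic dismutase, stood at 1210.4 to 1607 TPM, a range that overlapped those of Gpx1 and Gpx4. It lay far above mitochondrial Sod2 (20.8 to 34.0 TPM) and extracellular Sod3 (130.1 to 151 TPM). Peroxisomal catalase, Cat, was at 237 to 383 TPM.

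Prdx5 (1125 to 1761 TPM) and Prdx1 (884 to 1002 TPM) led the peroxiredoxins in C57. Prdx2 (387 to 537 TPM), mitochondrial Prdx3 (176 to 219 TPM) and Prdx6 (215 to 274 TPM), which uses glutathione, were intermediate. Prdx4, the peroxiredoxin of the endoplasmic reticulum, stood at 37.2 to 47.1 TPM and Srxn1, the sulfiredoxin that repairs over-oxidised peroxiredoxins, at 30.7 to 41.7 TPM; these ranges overlapped. Of the thioredoxin system, cytosolic Txn1 lay at 304 to 384 TPM and mitochondrial Txn2 at 202 to 268 TPM. Their reductases Txnrd1 (28.5 to 48.3 TPM) and Txnrd2 (14.0 to 15.5 TPM) were lower, and Txnip, which binds and inhibits thioredoxin, lay at 190.2 to 354 TPM.

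Among transferases, Gsta2 was highest in C57 (1079 to 1160.2 TPM), followed by Gstm1 (633 to 733 TPM). Gstm5, Gsta4, Mgst1 (a membrane-bound transferase), Gsta3 and Gstp1 all lay between 127 and 287 TPM, with ranges that overlapped from each gene to the next. Ggt1 stood at 887, 642, 632 and 724 TPM. Gclm and Gss, glutathione synthetase, overlapped at 205 to 266 and 207 to 273 TPM, and the catalytic ligase subunit Gclc spread widely, at 60.5, 154, 176 and 113 TPM. Gsr, glutathione reductase, lay at 43.1 to 69.0 TPM and G6pdx, the glucose-6-phosphate dehydrogenase that feeds NADPH to it, at 22.9 to 30.3 TPM. Nfe2l2, which encodes NRF2, was at 47.8 to 74.5 TPM, Keap1 at 14.2 to 17.6, the quinone reductase Nqo1 at 39.7 to 53.9, inducible haem oxygenase Hmox1 at 8.42 to 13.1 and constitutive Hmox2 at 81.2 to 91.8 TPM.

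**Figure D1:**
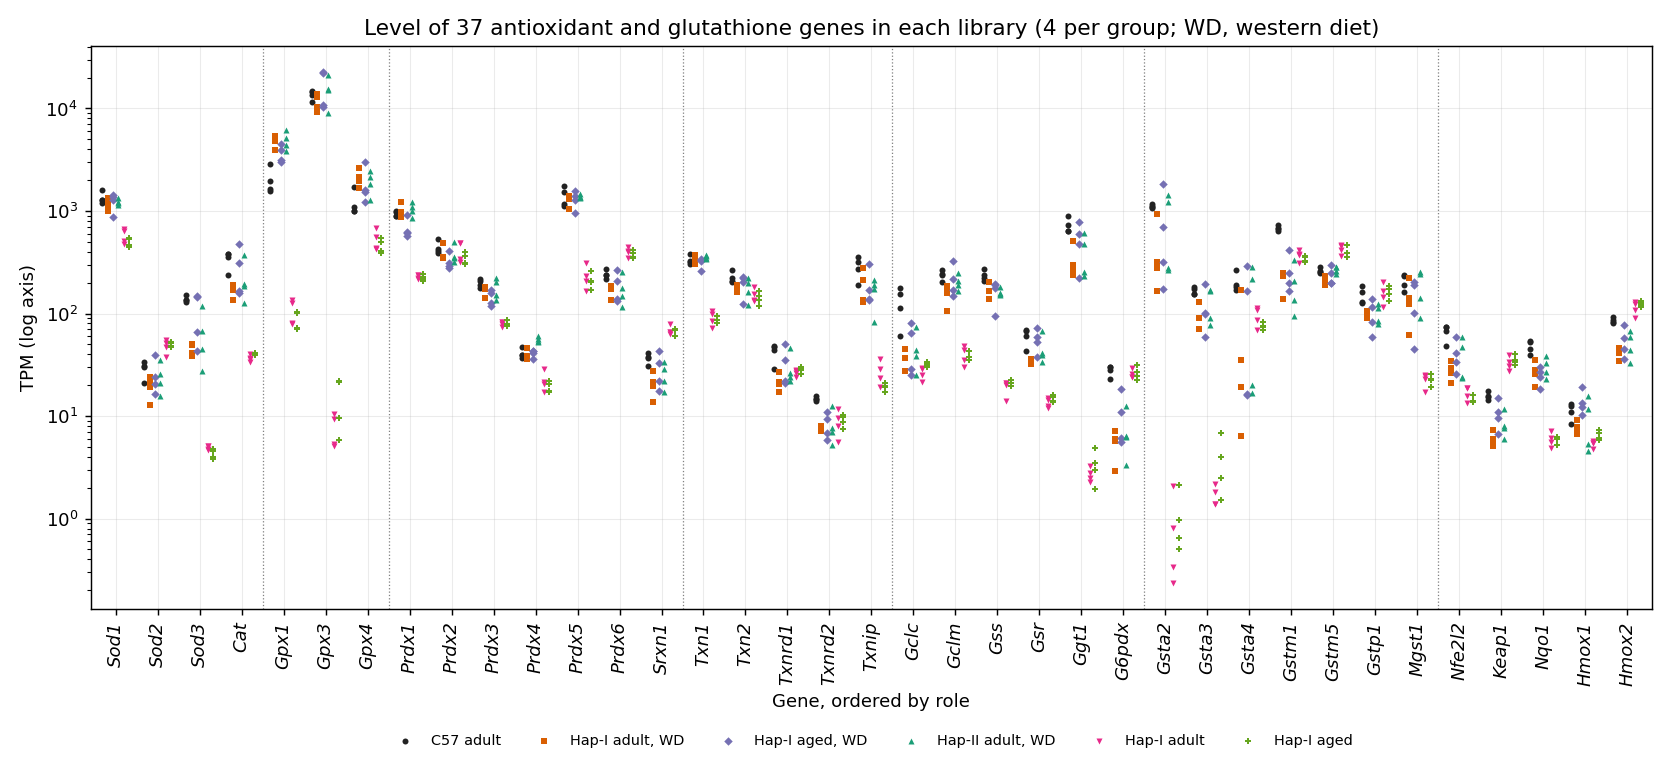
TPM of each of the 37 genes (log axis) in every library, ordered by role, with dotted lines between roles and 1 symbol per group of 4 libraries. Gpx3, Ggt1, Gsta2 and Gsta3 drop furthest in the brain-like Hap-I libraries with no diet stated, and Gsta4 splits the western-diet libraries into a high and a low set.

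Hap-I adults on western diet were first set against C57 adults. These groups differ by haplotype, stated diet and Y-linked RNA at once, so the separate parts of these cannot be told apart. Y-linked genes summed to 5 TPM or more in 3 of the 4 Hap-I libraries and in 0 of the 4 C57 libraries. Gpx1 and Gpx4 were higher and 19 members lower; over all 12923 genes tested, 62.0% were called, 2.28% higher and 59.7% lower. The median log2 difference over all genes was -0.80 and that of the members -0.62, so the number of lower members has to be read against a table in which most genes lie lower. Gpx1 stood at 3912, 3948, 5431 and 4793 TPM in Hap-I against 2852, 1636, 1565 and 1957 in C57. No Hap-I library overlapped C57, and the log2 difference was 1.20 ± 0.22 (SE, limma adjusted p = 0.00123, n = 4 and 4). Gpx4 was at 1658, 1957, 2131 and 2612 TPM against 1720.0, 998, 1011 and 1083, a log2 difference of 0.82 ± 0.28 (adjusted p = 0.0186). C57 replicate 1 reached into the Hap-I range of Gpx4. Gpx3, the third peroxidase, did not pass the test (11569 ± 2195 against 13607 ± 1387 TPM, SD, adjusted p = 0.45).

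The smallest adjusted p among the members was that of G6pdx, the entry enzyme of the pentose phosphate pathway, at 7.12, 5.70, 5.98 and 2.93 TPM in Hap-I on western diet against 22.9, 30.3, 30.2 and 28.3 in C57. All 4 Hap-I values lay below every C57 value, with a log2 difference of -2.21 ± 0.36 (adjusted p = 0.000825). Gstm1, a mu-class transferase, stood at 231, 236, 251 and 139 TPM against 733, 633, 689 and 662. These groups were likewise apart, by -1.69 ± 0.34 on the log2 scale (adjusted p = 0.00158). G6pdx shares 12.6% of its 31-base words with the retrogene G6pd2 and 11.8% with the overlapping gene Ikbkg.

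Of glutathione synthesis and recycling, 5 of 6 genes were lower, where 59.7% of all genes were: besides G6pdx these were Gclc (-1.67 ± 0.40, adjusted p = 0.00351), Gsr (-0.77 ± 0.24, 0.0124), Ggt1 (-1.17 ± 0.37, 0.0127) and Gclm (-0.61 ± 0.24, 0.0364). Gss missed the threshold at -0.49 ± 0.22 (adjusted p = 0.0564), although its groups did not overlap. In the NRF2 group 4 of 5 were lower, against the same 59.7% of all genes, namely Keap1 (-1.28 ± 0.24, adjusted p = 0.00131), Hmox2 (-1.05 ± 0.24, 0.00295), Nfe2l2 (-1.21 ± 0.30, 0.00439) and Nqo1 (-0.82 ± 0.22, 0.00621). Hmox1 was at 7.58 ± 1.13 against 11.3 ± 2.09 TPM and was not called. Sod3 fell from 138 ± 8.78 to 45.0 ± 6.06 TPM (log2 -1.60 ± 0.40, adjusted p = 0.00408), and Txnrd2 from 14.7 ± 0.634 to 7.54 ± 0.369 TPM (log2 -0.88 ± 0.24, 0.00602).

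The other lower members were Cat, Srxn1, Txnrd1, Gsta2, Gsta3, Gsta4 and Gstp1. Gsta2, Gsta3 and Gsta4, like Nfe2l2, are among the members that split the western-diet libraries by Y-linked RNA, as given below. Of the 7 peroxiredoxin and sulfiredoxin genes only Srxn1 passed (-0.85 ± 0.28, adjusted p = 0.0171); Prdx1 to Prdx6 had log2 differences from -0.51 to 0.18. Sod1 (-0.17), Txn1 (0.03) and Txn2 (-0.38) were not called either, nor were Sod2 (-0.56), Txnip (-0.62), Gstm5 (-0.30) and Mgst1 (-0.70). The calls of Cat, Gclm, Srxn1, Gpx4, Gsta2, Gsta3, Gsta4 and Gstp1 were each lost when some single library was left out: Hap-I replicate 4 ended all 8 of them (adjusted p 0.0631 to 0.144), and leaving out any other Hap-I or C57 library ended between 1 and 6 of them. Gpx4 lost its call without C57 replicate 2 (adjusted p = 0.0522), C57 replicate 3 (0.0512) or Hap-I replicate 4 (0.0631).

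Because so many genes were lower, the same contrast was fitted under 4 other scalings of the table. Median-of-ratios rescaling moved the median of all genes to 0.00 and turned the members' split to 14 higher and 2 lower, against 18.2% and 14.0% of all genes. Quantile normalization gave 4 higher and 6 lower (15.6% and 14.6% of all genes), TPM rescaled without mitochondrial genes 3 and 10 (4.47% and 38.7%), and removal of the trend with transcript length 6 and 4 (15.1% and 15.0%). The length trend was itself steep: the median log2 difference of all genes was -0.30 for transcripts up to 750 bases and -1.03 for those over 6000. Called in the same direction under the deposited TPM and all 4 of these were Gpx1 (log2 1.18 to 2.22) and Gpx4 (0.68 to 1.84) on the higher side, and G6pdx (-2.21 to -1.28) and Gstm1 (-1.69 to -0.67) on the lower side. Gclm was called lower as deposited (-0.61) but higher under median-of-ratios (0.40) and with the length trend removed (0.36). The mean log2(TPM + 1) of the 4 Y-linked genes was also used as a covariate. It left 1 member higher and 8 lower, against 129 genes higher and 3155 lower of all 12923. Gpx1 (0.92, adjusted p = 0.0191), G6pdx (-1.84, 0.013) and Gstm1 (-1.32, 0.0246) kept their calls and Gpx4 did not (0.55, 0.163).

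**Figure D2:**
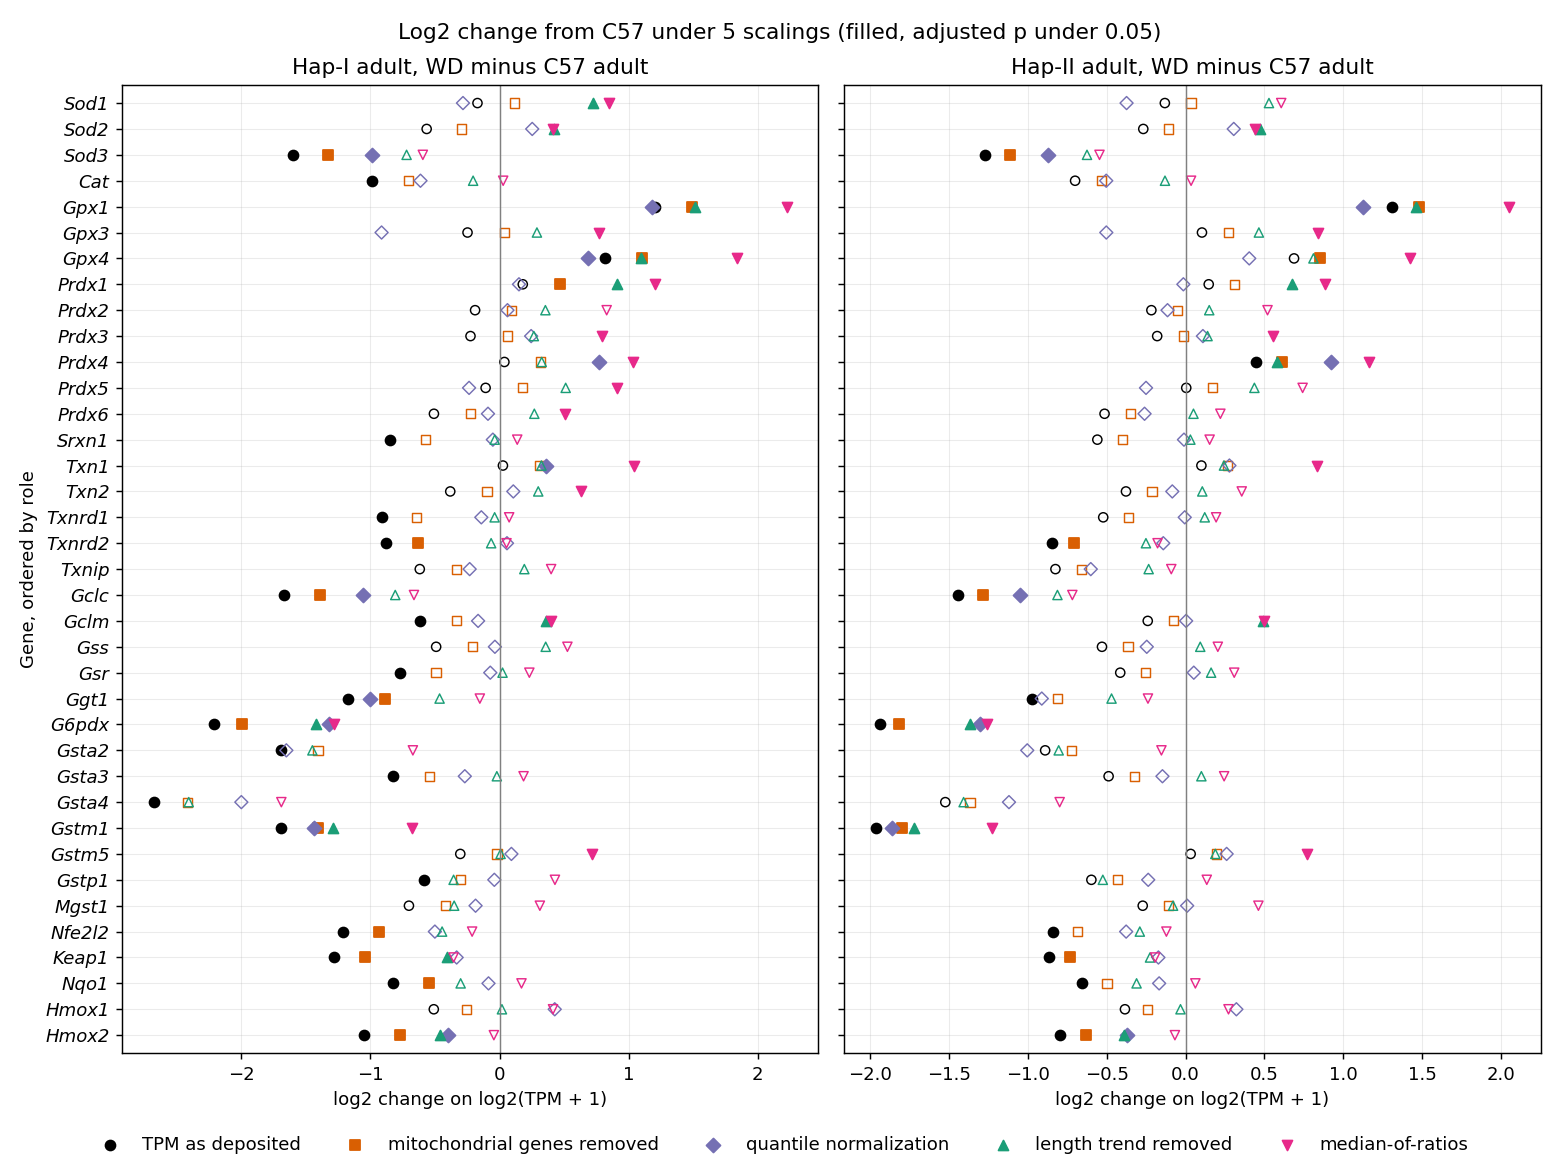
Log2 difference from C57 of each member in Hap-I (left) and Hap-II (right) adults on western diet, under the deposited TPM and 4 other scalings; filled symbols have an adjusted p under 0.05. Gpx1 lies right of zero and G6pdx and Gstm1 left of it under every scaling in both panels, while many other members cross zero between scalings.

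Hap-II adults on western diet were compared with the same 4 C57 libraries, so the 2 contrasts share their controls. Haplotype, stated diet, Y-linked RNA, library names and mitochondrial share (21.2% to 27.8% against 12.4% to 16.9% of TPM) again differ at once. Y-linked genes summed to 5 TPM or more in 2 of the 4 Hap-II libraries and in 0 of the 4 C57 libraries. Here 2 members were higher and 10 lower, against 39.7% of all genes called (2.73% higher, 36.9% lower), with medians of -0.51 for the members and -0.59 for all genes. Gpx1 was again higher, at 3825, 4409.6, 6224 and 5195 TPM, with no overlap with C57 and a log2 difference of 1.31 ± 0.22 (adjusted p = 0.00148). Prdx4 stood at 53.3, 56.2, 59.9 and 53.6 TPM against 47.1, 37.2, 39.6 and 39.2 in C57, a log2 difference of 0.45 ± 0.16 (adjusted p = 0.0363). All 4 Hap-II values of Prdx4 lay above every C57 value, yet the call was lost without any 1 of Hap-II replicates 2, 3 and 4 or C57 replicates 2, 3 and 4 (adjusted p 0.0626 to 0.0995). Gpx4 reached 0.69 ± 0.28 and missed the threshold (adjusted p = 0.0558).

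G6pdx was at 12.6, 6.40, 3.31 and 6.22 TPM and Gstm1 at 336, 206, 94.9 and 136 TPM in Hap-II, both below every C57 value. Their log2 differences were -1.94 ± 0.36 (adjusted p = 0.00257) and -1.97 ± 0.34 (adjusted p = 0.00158). The other lower members were Keap1 (-0.87 ± 0.24, adjusted p = 0.014), Gclc (-1.45 ± 0.40, 0.0143), Txnrd2 (-0.85 ± 0.24, 0.0149), Hmox2 (-0.79 ± 0.24, 0.0209), Sod3 (-1.28 ± 0.40, 0.0224), Nqo1 (-0.66 ± 0.22, 0.031), Nfe2l2 (-0.84 ± 0.30, 0.0385) and Ggt1 (-0.98 ± 0.37, 0.0448). Leaving out single libraries ended the call of Ggt1 in 7 of 8 cases, of Nfe2l2 and Nqo1 in 5, of Hmox2 and Sod3 in 4, and of Keap1, Gclc and Txnrd2 in 1, that without Hap-II replicate 3 (adjusted p 0.0556 to 0.0607). Without Hap-II replicate 3 the count of called members fell from 12 to 3 (Gpx1, G6pdx and Gstm1), and without Hap-II replicate 4 it was 7. Without C57 replicate 2 or 4 it was 6, without C57 replicate 3 it was 8, and without Hap-II replicate 1 it was 20. Shares of all genes called in these fits are not given here, so the counts cannot be read as particular to the members. Median-of-ratios rescaling again turned the split, to 10 higher and 2 lower, against 13.1% and 9.56% of all genes; the splits were 2 and 5 under quantile normalization (11.7% and 10.9%), 3 and 7 without mitochondrial genes (3.68% and 21.8%) and 5 and 3 with the length trend removed (11.6% and 11.1%). Gpx1 and Prdx4 were called higher, and G6pdx and Gstm1 lower, under all 5 scalings. With the Y-linked covariate 3 calls were left, those of Gpx1 (1.11, adjusted p = 0.00556), G6pdx (-1.68, 0.0126) and Gstm1 (-1.70, 0.00715). Calls fell over the whole table too, to 184 genes higher and 1742 lower of all 12923.

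**Figure D3:**
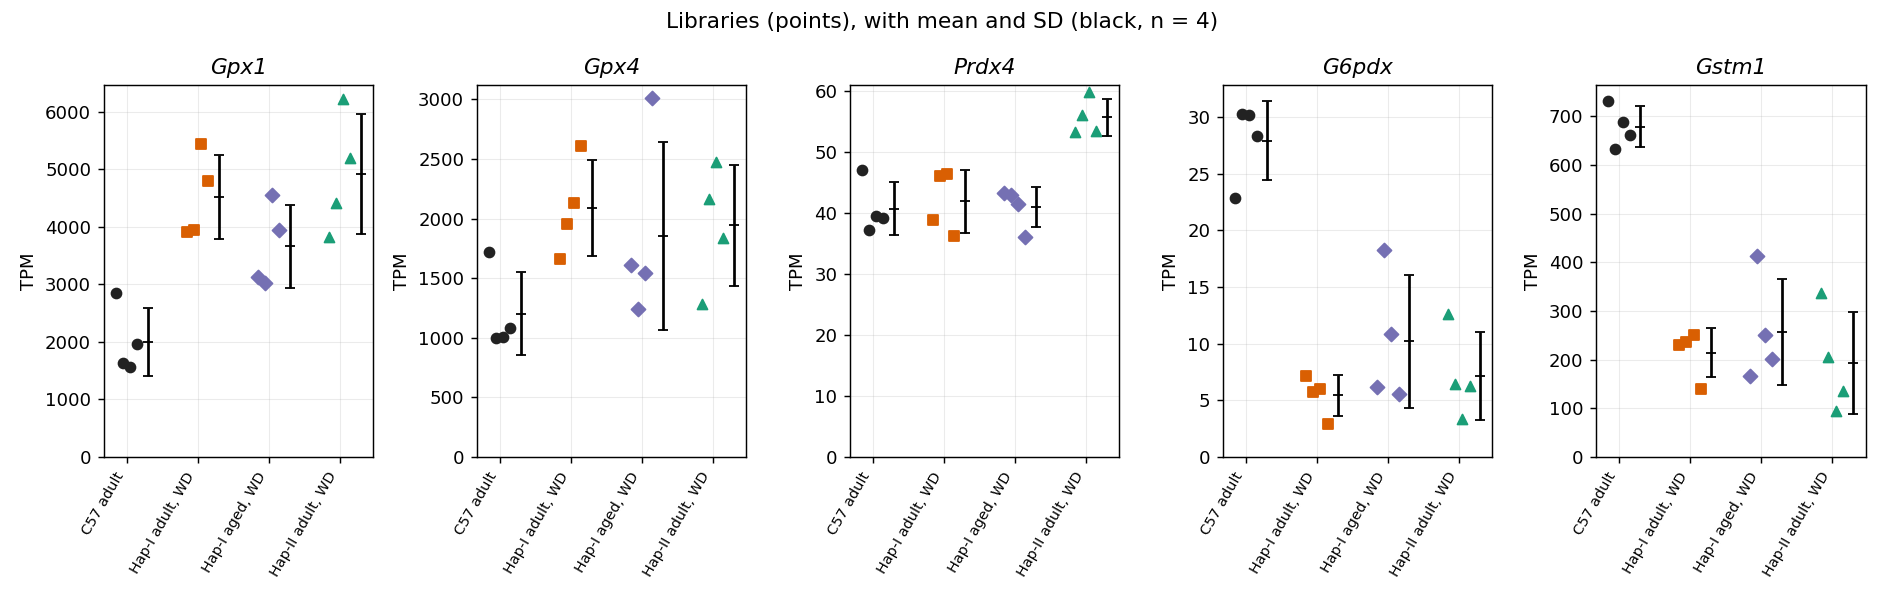
TPM of Gpx1, Gpx4, Prdx4, G6pdx and Gstm1 in the 16 kidney libraries by group, with group mean and SD in black (n = 4). Gpx1 sits above and G6pdx and Gstm1 below the C57 values in all 12 western-diet libraries; Prdx4 is above C57 in the Hap-II group.

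Values of some other cell types moved alongside these contrasts. The 6 red-cell genes summed to 2706 to 26293 TPM on western diet against 839 to 2315 in C57. Sums for 4 thick ascending limb genes were 87.2 to 1833 against 1722 to 3239, for 4 collecting duct principal cell genes 44.2 to 372 against 363 to 722, and for 6 adipocyte genes 2.69 to 46.6 against 47.4 to 1435. Of 12 proximal tubule markers, 7 were lower in Hap-I and 4 in Hap-II, where 59.7% and 36.9% of all genes were. Sums of these 12 on western diet, 10777 to 83919 TPM, spanned the C57 range of 35196 to 56485 TPM. Kap, 1 of the 12, was a large part of them, at 7196 to 80749 TPM on western diet and 25674 to 47985 in C57. The sums therefore largely follow Kap and do not describe the other markers. The median log2 difference of the 12 from C57 was -1.06 in Hap-I and -0.74 in Hap-II, against -0.80 and -0.59 over all genes. The part of these cell types in the members' differences was not tested.

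Within Hap-I on western diet, the effect of age was asked by comparing 4 aged with 4 adult libraries. Of these, 2 aged and 3 adult libraries held 5 TPM or more of Y-linked RNA, so the groups were not balanced for it. No member passed the test, and neither did many other genes, with 0.0310% called among 12923. At an unadjusted p under 0.05 there were 5 members, against 16.1% of all genes. The largest by p was Prdx1, at 624, 609.6, 924 and 575 TPM in aged against 980.5, 1211, 1212 and 882 in adult kidneys. Only aged replicate 3 reached the adult range, and the log2 difference was -0.66 ± 0.18 (adjusted p = 0.149). In the fit that took in all 24 libraries Prdx1 was called, at an adjusted p of 0.0233.

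The other 4 had higher means in aged kidneys. Gsr was at 37.4, 71.6, 59.6 and 52.8 TPM against 36.2, 35.5, 32.5 and 32.6 (0.64 ± 0.24, adjusted p = 0.23), and Hmox1 at 13.5, 12.3, 19.2 and 10.2 against 7.82, 6.80, 6.61 and 9.07 (0.76 ± 0.31, 0.262); neither pair of groups overlapped. Keap1 (10.6 ± 3.53 against 5.91 ± 1.01 TPM, adjusted p = 0.194) and Sod3 (100.5 ± 53.8 against 45.0 ± 6.06 TPM, 0.264) did overlap. The spread among aged mice was wide: Sod3 read 42.7, 147, 145 and 66.6 TPM, so that replicates 2 and 3 stood at C57 levels and replicate 1 within the adult range. Weighting libraries by their fitted quality called 8 members, Prdx1 lower and Sod3, Hmox1, Keap1, Gsr, Ggt1, Gpx3 and Cat higher. The share of all genes called under that weighting is not given here, so the 8 cannot be read as particular to the members. The 8 B and plasma cell markers summed to 596 to 1500 TPM in the aged group against 55.8 to 239 in the adults, and their part in these values was not tested. The median log2 difference was 0.16 for the members and 0.32 for all genes.

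The effect of haplotype on western diet was asked by setting Hap-I against Hap-II adults. Here too Y-linked RNA was not balanced, with 3 Hap-I and 2 Hap-II libraries at 5 TPM or more. No member was called, against 0.0774% of all genes; 1 member, Prdx4, had an unadjusted p under 0.05, a level that 3.26% of all genes reached. Prdx4 was at 38.9, 46.1, 46.5 and 36.3 TPM in Hap-I and 53.3, 56.2, 59.9 and 53.6 in Hap-II, without overlap, a log2 difference of -0.41 ± 0.16 (adjusted p = 0.817). Gstm5, a mu-class transferase, also did not overlap (191 to 231 against 242 to 286 TPM) and had an adjusted p of 0.817. Medians were alike at -0.22 for members and -0.22 for all genes. The widest standard error belonged to Gsta4, -1.15 ± 1.08, whose adult values ran 171, 19.2, 35.5 and 6.42 TPM in Hap-I and 282, 219, 20.1 and 16.6 in Hap-II.

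**Figure D4:**
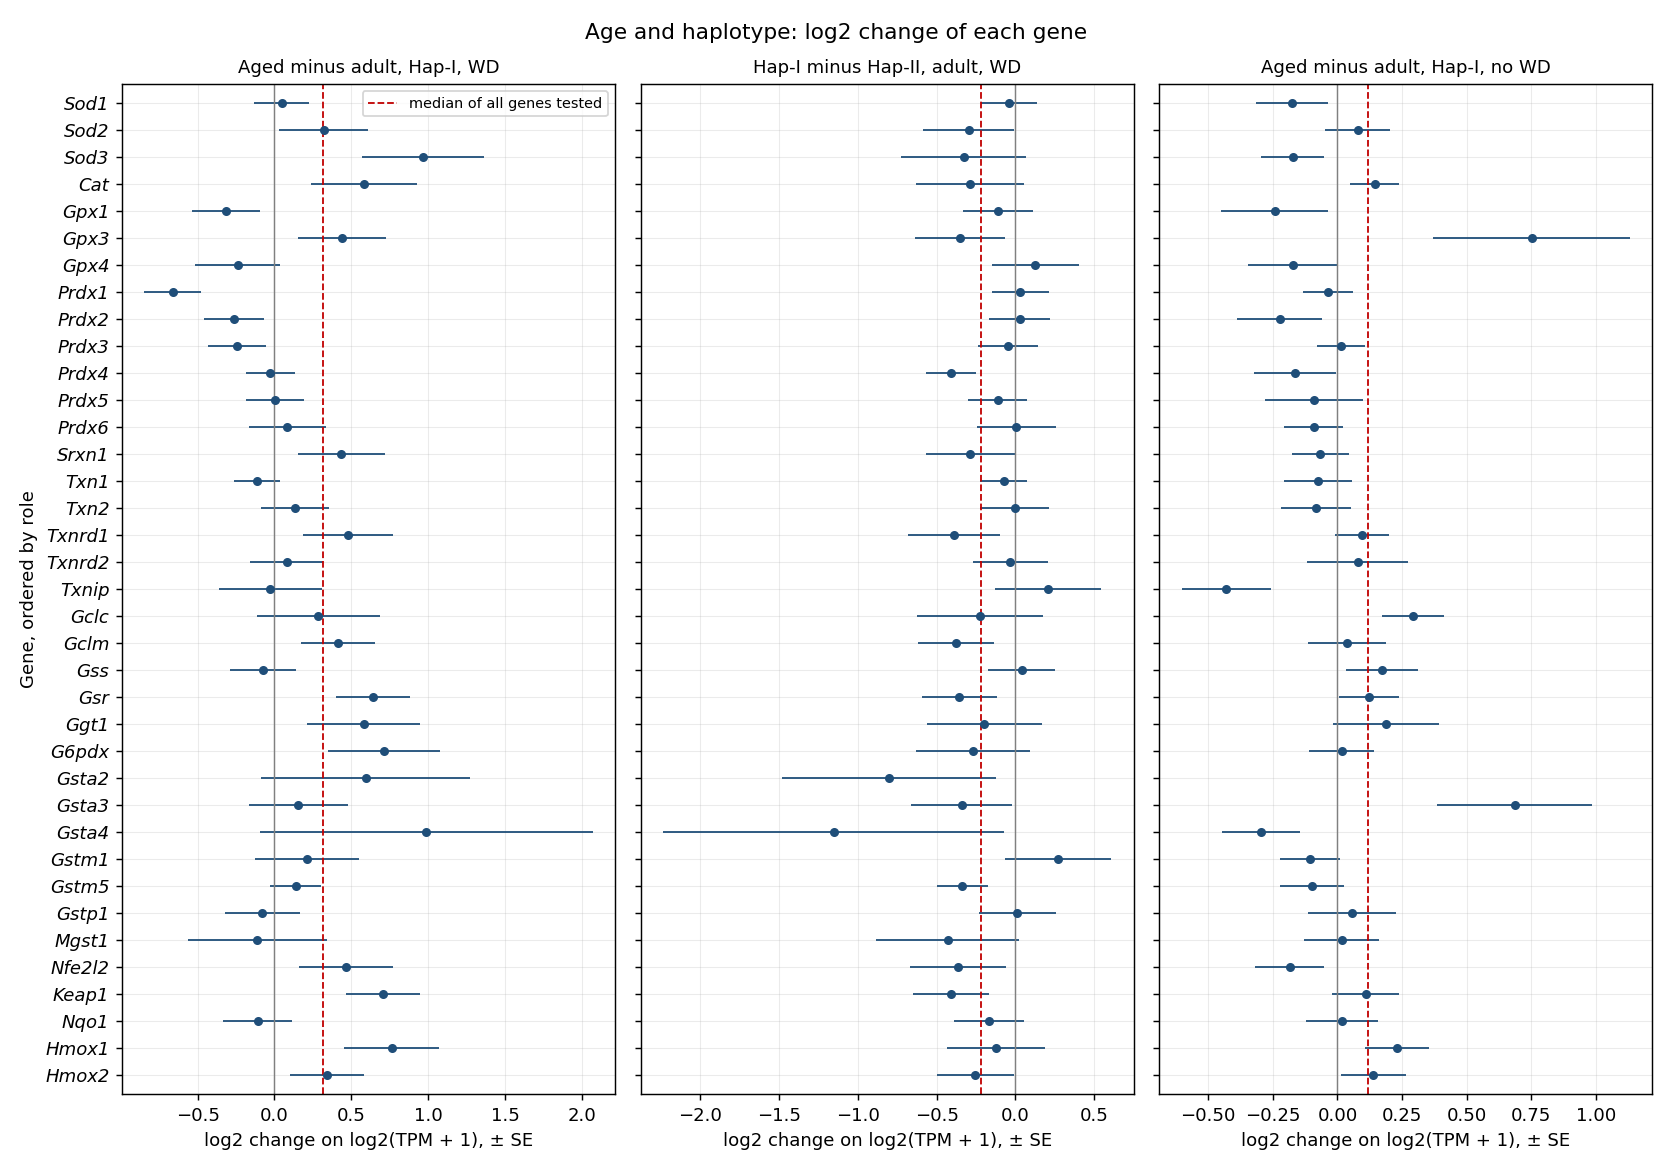
Log2 difference with its standard error for each member in 3 contrasts (WD, western diet); the dashed red line is the median of all genes tested. No member passed the test in any panel, and Gsta4 and Gsta2 have the widest errors on western diet.

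That spread followed the Y-linked transcripts and not the study's groups, a pattern found after the values were seen and given without a test. The 5 western-diet libraries with at most 2.16 TPM of Y-linked RNA were Hap-I adult replicate 1, Hap-I aged replicates 1 and 2, and Hap-II replicates 1 and 2. Gsta4, which detoxifies the lipid aldehyde 4-hydroxynonenal, stood at 171, 167, 291, 282 and 219 TPM in those 5. In the other 7 it was at 19.2, 35.5, 6.42, 16, 16.4, 20.1 and 16.6 TPM. The ratio of the medians was 13.2, and the 4 C57 libraries, which were also under 1 TPM of Y-linked RNA, read 168 to 265 TPM.

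In all, 5 of the 37 members were higher without overlap in the libraries low in Y-linked RNA and 0 were lower, where 4.51% of all genes were higher and 1.01% lower. Gsta2 lay at 699 to 1854 TPM against 166 to 319.9, Gsta3 at 101 to 196 against 59.5 to 99.4, and Mgst1 at 189 to 251 against 45.2 to 142. Nfe2l2 lay at 34.4 to 59.1 TPM against 21.0 to 33.7. Kap, the kidney androgen-regulated protein of the proximal tubule, ran the other way, at 7196 to 21203 TPM against 57568 to 80749. In C57, also low in Y-linked RNA, Kap lay between these ranges, at 25674 to 47985 TPM. Gsta2 shares 44.7% of its 31-base words with Gsta1 and 43.6% with Gm10639, so part of its signal may belong to those copies. Gsta1 itself was at no more than 6.37 TPM in the 12 western-diet libraries, and the level of Gm10639 is not given here.

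**Figure D5:**
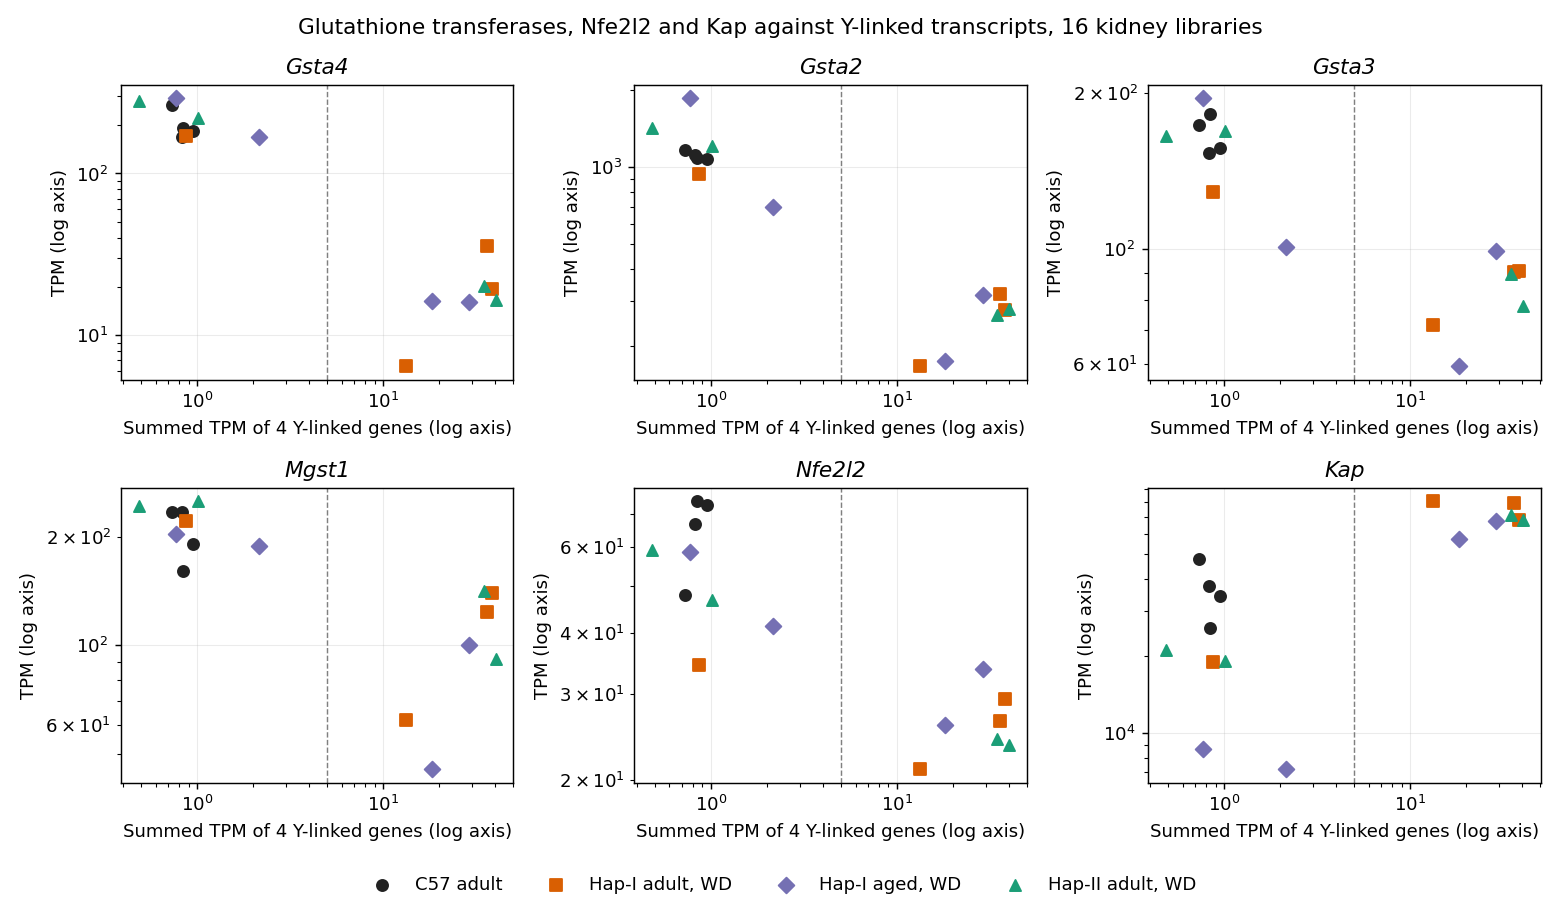
TPM of Gsta4, Gsta2, Gsta3, Mgst1, Nfe2l2 and Kap against the summed TPM of 4 Y-linked genes in the 16 kidney libraries (both axes log; dashed line at 5 TPM). On the left of the line the transferases and Nfe2l2 are high in libraries of every group; on the right, only western-diet libraries occur, with the transferases and Nfe2l2 lower and Kap higher.

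The ratio of 2 members within a library is unchanged by any single factor applied to that library, though not by quantile normalization or removal of the length trend. The catalytic ligase subunit Gclc amounted to 0.295 to 0.738 of the modifier Gclm in C57 (median 0.525). On western diet the ratio was 0.177 to 0.35 in Hap-I adults, 0.17 to 0.367 in aged Hap-I and 0.152 to 0.302 in Hap-II, with medians of 0.221, 0.184 and 0.208; each range met or overlapped that of C57 through its lowest value. Gpx1 over Gpx4 was 1.55 to 1.81 in C57 and 1.83 to 2.55 in Hap-I adults and 2.03 to 2.97 in Hap-II, without overlap, while aged Hap-I mice on western diet, at 1.31 to 2.94, spanned the C57 range. Gpx3 over Gpx1 was 4.09 to 9.23 in C57 against 1.93 to 3.56 in Hap-I adults, without overlap, while Hap-II (1.46 to 5.55) and aged Hap-I mice on western diet (2.77 to 7.60) overlapped C57. Nfe2l2 over Keap1 overlapped, at 3.06 to 5.15 in C57, 4.13 to 4.98 in Hap-I adults, 2.69 to 6.21 in aged Hap-I mice on western diet and 2.95 to 6.12 in Hap-II.

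In the 8 brain-like libraries the members had another order. Gpx3 was at 5.14 to 21.8 TPM and Ggt1 at 1.92 to 4.91 TPM, and the leading members were Sod1 (447 to 664 TPM), Gpx4 (393 to 679.7), Gstm5 (354 to 467), Prdx6 (345 to 448) and Prdx2 (308 to 484). Against C57, the adult group showed 5 members higher and 27 lower, with 71.3% of all genes called (45.6% higher, 25.6% lower). The 5 were Keap1 (32.7 ± 4.86 against 15.7 ± 1.40 TPM), Gstm5, Srxn1, Prdx6 and Sod2, with log2 differences of 1.01, 0.70, 0.88, 0.73 and 0.72. Sod2 changed sign, to -0.14, once the length trend was removed, and lost its call without C57 replicate 1 (adjusted p = 0.056); without any 1 of C57 replicates 2, 3 and 4 or Hap-I replicates 1 and 3, Txnrd1 lost its lower call (0.0508 to 0.0787).

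Among the 27 were Gpx3 (-10.69 on the log2 scale), Gsta2 (-9.32), Ggt1 (-7.60), Gsta3 (-5.97), Sod3 (-4.55), Gpx1 (-4.24) and Gss (-3.57), and the 12 of smallest adjusted p also held Nqo1 (-2.82), Txn1 (-1.88), Prdx5 (-2.62), Prdx1 (-2.03) and Gclm (-2.59). On the deposited scale G6pdx was not called in the brain-like libraries: it read 24.2, 25.6, 24.1 and 29.7 TPM in adults, overlapping C57 (adjusted p = 0.782). It was called lower there under median-of-ratios rescaling (-0.44, adjusted p = 0.0293) and quantile normalization (-0.65, 0.000803).

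The contrast of Hap-I adults with and without stated western diet compares kidney with brain-like RNA, so the diet cannot be told apart from tissue content. It called 21 members higher and 9 lower, against 80.2% of all genes (16.9% higher, 63.3% lower). Under median-of-ratios rescaling the split was 29 and 3, against 36.0% and 40.9% of all genes. With the smallest adjusted p were Gpx3 (10.44), Gpx1 (5.44), Ggt1 (6.43), Gss (3.08), Gsta3 (5.14), Prdx1 (2.21), Txn1 (1.90), Prdx5 (2.52), Gsta2 (7.63) and Nqo1 (2.00) on the higher side, with Keap1 (-2.28) on the lower and Gclm (1.97) higher. G6pdx was lower by this contrast too (-2.11). Sod2, Gstm1 and Gstp1 were called in both directions depending on the scaling. Leaving out Hap-I western-diet replicate 4 ended the call of Gstm1 (adjusted p = 0.0646), and leaving out replicate 1 with no stated diet ended that of Gstp1 (0.0576). Nfe2l2 lost its call without western-diet replicate 1 (0.0647) and without replicate 1 with no stated diet (0.0620).

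Age was also compared within the 8 brain-like libraries. No member of the 36 tested was called, against 0.0296% of all genes; Gsta2, at 0.235 to 2.12 TPM, fell under the filter. At an unadjusted p under 0.05 stood 3 members, Txnip (19.2 ± 1.52 aged against 26.9 ± 7.20 adult TPM, adjusted p = 0.283), Gclc (32.0 ± 1.67 against 26.1 ± 3.68, 0.292, no overlap) and Gsta3 (3.70 ± 2.32 against 1.69 ± 0.386, 0.313), where 15.4% of all genes reached that level. The difference between the age effects on western diet and without it called 0 members, against 0.0263% of all genes, with 3 at an unadjusted p under 0.05, a level that 1523 of all 15200 genes (10%) reached: Prdx1 (-0.62 ± 0.21, adjusted p = 0.278), Sod3 (1.14 ± 0.48, 0.424) and Keap1 (0.60 ± 0.28, 0.491).

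Of 102 further redox genes listed by function, 93 were tested in kidney. In Hap-I on western diet 3 were higher and 53 lower than in C57 (median -0.91), and in Hap-II 4 and 32 (median -0.65). Over all genes 59.7% were lower in Hap-I (median -0.80) and 36.9% in Hap-II (median -0.59), so these counts lie near the background. Pgd, the second NADPH-producing enzyme of the pentose phosphate pathway after G6pdx, fell from 52.6 ± 2.59 TPM in C57 to 13.8 ± 2.66 in Hap-I (-1.87 ± 0.37, adjusted p = 0.00151) and 21.6 ± 12.3 in Hap-II (-1.39 ± 0.37, 0.0115). Taldo1, transaldolase, went from 234 ± 39.0 to 116 ± 19.3 TPM in Hap-I, and the mitochondrial folate enzyme Mthfd2 from 4.10 ± 0.684 to 0.863 ± 0.543. Selenop, the secreted selenium carrier, was higher on western diet, at 2378 ± 825 TPM in Hap-I and 2196 ± 1388 in Hap-II against 442 ± 42.1 in C57 (log2 2.34 ± 0.43 and 2.08 ± 0.43, adjusted p = 0.00121 and 0.00421). Chac2, which degrades glutathione, was higher as well (1.26 and 1.14).

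Among NRF2 targets, the glutathione-conjugate exporter Abcc1 (-2.32 and -1.98 in Hap-I and Hap-II), the epoxide hydrolase Ephx1 (-2.38 and -2.19) and the aldo-keto reductase Akr1b8 (-1.76 and -1.76) were lower in both. So were Oplah, the 5-oxoprolinase of the glutathione cycle (-1.82 and -1.59), the mitochondrial carrier Ucp2, aldehyde oxidase Aox3, the protein disulfide isomerase Txndc5, and the transferases Gstm2 (-2.17 in Hap-I) and Gstt3. Slc3a1, a subunit of the renal cystine transporter (-1.74 and -1.17), Ggt6, Gstm4, Nxn, Txnrd3 and Msrb3 were also lower in both. Gsto2 was lower in Hap-I (-1.20, adjusted p = 0.00216) and missed the threshold in Hap-II (-0.66, 0.0518), and Txndc17 was higher in both (0.50 and 0.61). None of the 93 was called for age or for haplotype on western diet, where 12 and 5 had an unadjusted p under 0.05 in limma's test, against 16.1% and 3.26% of all genes.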

How the data were processed

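The authors deposited 1 table of TPM per gene and library; kallisto, DESeq2 and GRCm38 are listed, with neither version nor role, per the submitters' processing notes, and the annotation is not given in the sources used here. Library sums were 904693 to 944019 TPM. TPM keeps no depth, so no counting interval is given. Of 30153 gene identifiers, 29811 matched symbols in GENCODE M21. TPM was tested as log2(TPM + 1) with limma 3.58.1 in R 4.3.3 (trended empirical Bayes, two-sided, Benjamini-Hochberg adjustment over all genes tested, threshold 0.05), after leaving out genes that reached 1 TPM in fewer than 4 of the fitted libraries. Fold changes on this scale understate low genes. Fits took 16 kidney libraries (12923 genes), the 8 brain-like ones (13497) or all 24 (15200) for the 3 contrasts that cross them. The design text states 4 animals a group. The fitting code was tested on simulated data. All 37 members were accounted for; every called member was named, or the 12 of smallest adjusted p where more were called, and up to 3 further redox genes a list. Members, lists and rules were chosen with earlier results of these data known. The length-trend scaling and the summing of near-identical copies were added after the values were seen. The main fits had no replicate block, because same-numbered libraries did not all deviate together, which does not settle whether they are paired. A blocked fit was an alternative.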

Additional observations from a re-analysis of the deposited data

Results flagged for a closer look

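In 7 of 222 groups of 4 libraries (37 members in 6 groups) 1 library lay far from the other 3 by Dixon's test; chance alone flags about 5% of such groups. Gpx4 was at 1720 TPM in C57 replicate 1, with the next value at 1083, and this library lies in the control group of the Gpx4 calls. Prdx1 was at 924 TPM in aged Hap-I replicate 3 on western diet (next 624). Prdx2 was at 485 TPM in adult Hap-I replicate 4 on western diet (next 359.5). Aged Hap-I replicate 1 on western diet was low in Txn1 (261 TPM, next 329) and in Gss (94.5 TPM, next 179). In the brain-like adult group, Srxn1 was at 79.7 TPM in replicate 4 (next 65.6) and Gss at 14.2 TPM in replicate 3 (next 20.1).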

How the results depend on the processing

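Calls against C57 depend on scaling and on single libraries. Age and haplotype calls are few in the main fits, and TPM gives no depth to bound what could be missed. For Hap-I on western diet against C57 the 21 members called became 10 under quantile normalization, 13 without mitochondrial genes, 34 with array weights, 9 with the Y-linked covariate and 10 with the length trend removed. For Hap-II the 12 became 7 under quantile normalization, 29 with array weights and 3 with the Y-linked covariate. For age on western diet 0 became 1 in the fit of all 24 libraries and 8 with array weights. For the difference of the age effect 0 became 4 with array weights. Shares of all genes are not given for the array-weighted fits or for age in the fit of all 24 libraries. Their counts therefore have no background here. The cause of the shifts between settings was not tested. Leaving out 1 library gave 14 to 21 called members for Hap-I and 3 to 20 for Hap-II against C57. It gave 31 to 32 for Hap-I with no stated diet against C57 and 28 to 30 for the diet contrast. For age on western diet, age without it, haplotype and the difference of the age effect it gave 0 to 0. These ranges likewise have no share of all genes beside them.

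Called members that changed sign under median-of-ratios rescaling in Hap-I against C57 were Cat (0.028), Srxn1 (0.14), Txnrd1 (0.075), Txnrd2 (0.054), Gclm (0.40), Gsr (0.23), Gsta3 (0.19), Gstp1 (0.43) and Nqo1 (0.17). In that contrast Txnrd2 also did so under quantile normalization (0.058), and Gclm (0.36) and Gsr (0.023) with the length trend removed. In Hap-II, Nqo1 did so under median-of-ratios (0.062). For Hap-I with no stated diet against C57, Sod2 became -0.14 with the length trend removed. In the diet contrast, Prdx6 (0.070), Gstm1 (0.49), Gstm5 (0.31) and Gstp1 (0.67) changed sign under median-of-ratios, Gstp1 (0.044) under quantile normalization and Sod2 (0.45) with the length trend removed.

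With the replicate block, 0 members were called for age and 0 for haplotype on western diet, as without it. Same-numbered libraries correlated in their deviations from group means by 0.04 to 0.47 for age and -0.05 to 0.54 for haplotype. Correlations of differently numbered libraries are not given beside them, so these values do not settle whether the number pairs them. No member shared 50% of its 31-base words with another gene, so the planned removal of such copies changed nothing and was not run; fits of only the groups compared, or of all 24 libraries, were not run where the main fit already took those libraries, nor was the former for the difference of the age effect.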
